A study of Mus musculus with 5 samples.

Results

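The collagen windows are 5 stretches of the mouse genome around 7 collagen genes, and every listed p300 or c-Jun peak whose centre lay inside one was taken. They held 161 of the 83829 peaks in 4 deposited lists from chromatin immunoprecipitation followed by sequencing (ChIP-seq). In build mm9, the Col1a1 window ran on chromosome 11 from 94750000 to 94870000, and the Col1a2 window on chromosome 6 from 4400000 to 4550000. The window of Col3a1 and Col5a2 ran on chromosome 1 from 45320000 to 45620000, and that of Col5a1 on chromosome 2 from 27690000 to 27950000. The window of Col4a1 and Col4a2 ran on chromosome 8 from 11140000 to 11500000. Together they span 1.19 Mb.

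The cells were MS5 at passage 11, a long-established line of stromal cells from mouse bone marrow. TGF-β1 (10 ng/mL, 5 h) had been given to the cells of all 4 ChIP libraries, and those called "with pioglitazone" had also received 20 ng/mL of pioglitazone, a thiazolidinedione drug and agonist of PPARγ, a nuclear receptor. The cells without pioglitazone were thus not untreated, and no group lacked TGF-β1. The libraries were 1 of p300 with pioglitazone, 1 of p300 without, 1 of c-Jun with and 1 of c-Jun without, and the series also has 1 pooled input, which was not analysed here. With 1 library in each group, no difference below has a replicate check, no p-value is given, and intervals cover counting error only.

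Fibrillar collagens are the rope-like proteins of the interstitial matrix, and TGF-β1 is a well known inducer of their synthesis in fibroblasts and stromal cells. Col1a1 and Col1a2 encode the chains of type I collagen, the main protein of scar tissue, and Col3a1 encodes the chain of type III collagen, which forms finer reticular fibres. Col5a1 and Col5a2 encode chains of type V collagen, which nucleates fibrils and limits their diameter. Col4a1 and Col4a2 encode the chains of type IV collagen, the sheet-forming collagen of basement membranes, and lie head to head around a shared promoter region. The coactivator p300 acetylates histones and is a common mark of enhancers in use. c-Jun joins with Fos or Jun partners to form AP-1, a transcription factor that binds the motif TGANTCA.

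Promoter sequences from RefSeq (build GRCm38.p6, 250 bases before to 50 after the start) matched 5 of the 7 genes: Col1a2, Col3a1, Col5a1, Col4a1 and Col4a2. The facing pair of type IV genes, which share a window, is shown. The capitals mark the 78 bases that both sequences hold, as reverse complements of each other. The Col4a1 sequence is chr8:11312777-11313076, minus strand, and the Col4a2 sequence is chr8:11312555-11312854, plus strand, both in GRCm38.p6, a build other than that of the peaks.
Col4a1: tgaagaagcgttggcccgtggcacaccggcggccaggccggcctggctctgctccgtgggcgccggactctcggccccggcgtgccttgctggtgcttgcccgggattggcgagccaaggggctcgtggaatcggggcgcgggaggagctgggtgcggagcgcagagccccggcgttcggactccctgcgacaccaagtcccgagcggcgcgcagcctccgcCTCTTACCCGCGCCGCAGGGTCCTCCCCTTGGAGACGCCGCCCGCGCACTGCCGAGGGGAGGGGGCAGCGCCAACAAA
Col4a2: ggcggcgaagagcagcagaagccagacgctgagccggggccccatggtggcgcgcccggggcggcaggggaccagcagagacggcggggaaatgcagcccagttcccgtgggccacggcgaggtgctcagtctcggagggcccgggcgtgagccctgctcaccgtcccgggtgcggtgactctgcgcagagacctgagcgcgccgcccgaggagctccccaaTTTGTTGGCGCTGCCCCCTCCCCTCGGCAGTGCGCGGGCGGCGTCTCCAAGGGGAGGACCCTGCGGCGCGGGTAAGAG
The shared stretch was 73.1% G or C. The AP-1 motif TGANTCA, searched on both strands, was in 0 of the 5 collagen sequences and in 7.81% of all 32851 promoter sequences of that length. The related motif TGACGTCA was in 0 of the 5 and in 1.79% of all. These letters being absent from 300 bases says nothing of c-Jun elsewhere in the windows, and no mm9 sequence was used here to read the peaks themselves.

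The lists held 21994 p300 peaks with pioglitazone and 31466 without, and 13325 c-Jun peaks with it and 17044 without. Each list gives only positions. The deposited score is 1 throughout, so no peak height or read depth is known, and the order of the rows was used as the only hint of strength. The place of a peak is its row as a percentage of the list, counted from the top. The lists with pioglitazone are shorter, so the same row is a later place in them. A later place with pioglitazone is thus not by itself a later row. Rows come in runs sorted by chromosome and position, the longest of which with a collagen peak was 739 rows, so that places inside 1 run cannot be ranked. The files and labels do not say what the sorting was based on.

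In both treatments every one of the 5 windows had peaks of both antibodies. p300 peaks in the windows numbered 45 with pioglitazone and 59 without, and c-Jun peaks 27 with and 30 without. For p300 the number with pioglitazone was 76.3% of that without, where the whole lists stood at 69.9%, and for c-Jun 90.0%, where the whole lists stood at 78.2%. The difference between windows and whole lists has no test, and for both antibodies it turned with how many rows were read. With the lists of each antibody made equally long from the top, the windows held 45 p300 peaks with pioglitazone and 54 without, fewer with it where the whole lists were then equal. The c-Jun peaks then numbered 27 with and 24 without, so for c-Jun the windows still stood above the whole lists. In the first 50% of every list, c-Jun peaks numbered 12 with and 17 without, a smaller share than the 78.2% of the whole lists. The p300 peaks there numbered 28 with and 43 without, also a smaller share than the 69.9% of the whole lists. By window, p300 peaks numbered 7 with and 8 without pioglitazone at Col1a1, and again 7 and 8 at Col1a2. They numbered 6 with and 12 without at Col3a1-Col5a2, 9 with and 9 without at Col5a1, and 16 with and 22 without at Col4a1-Col4a2. The Col3a1-Col5a2 window thus had the smallest share and the Col5a1 window the same number in both treatments. c-Jun peaks numbered 2 with and 3 without at Col1a1, 5 with and 7 without at Col1a2, and 4 with and 5 without at Col3a1-Col5a2. They numbered 4 with and 4 without at Col5a1, and 12 with and 11 without at Col4a1-Col4a2. No window differed by more than 2 c-Jun peaks between treatments.

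**Figure D1:**
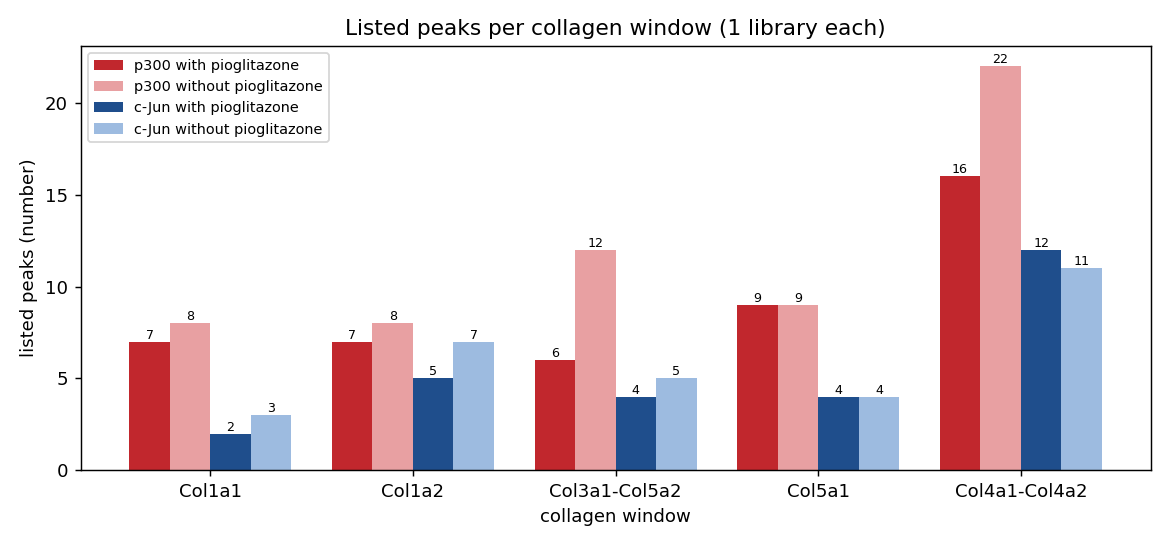
Number of listed peaks (y axis) in each of the 5 collagen windows (x axis), with 1 bar for each antibody and treatment and 1 library behind each bar. The p300 bars differ by 6 peaks both at Col3a1-Col5a2, with 6 with and 12 without pioglitazone, and at Col4a1-Col4a2, with 16 with and 22 without, and are equal at 9 in the Col5a1 window.

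The windows were dense in peaks. They were chosen with earlier results of these data known, so their density is a description and not independent support. The Poisson intervals treat peaks as independent, which neighbouring peaks may not be. p300 with pioglitazone was listed at 37.8 peaks per Mb (95% Poisson interval 27.6 to 50.6) in the windows, against 8.34 per Mb over the whole list, and p300 without at 49.6 (37.7 to 64.0), against 11.9. c-Jun with pioglitazone was listed at 22.7 peaks per Mb (15.0 to 33.0), against 5.05, and c-Jun without at 25.2 (17.0 to 36.0), against 6.46. The ratios to the whole list were 4.53, 4.15, 4.49 and 3.90. In the 500 kb on either side of each window, the densities of the same 4 lists were 13.8, 19.4, 8.80 and 10.2 peaks per Mb. The contrast with the flanks depended on the locus. At Col4a1-Col4a2, p300 stood at 4.44 peaks per 100 kb with pioglitazone and 6.11 without in the window, against 0.700 and 1.00 in the flanks. At Col3a1-Col5a2, p300 stood at 2.0 with and 4.0 without in the window, against 2.20 and 2.80 in the flanks, and c-Jun at 1.33 with and 1.67 without in the window, against 1.80 and 1.5 in the flanks.

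**Figure D2:**
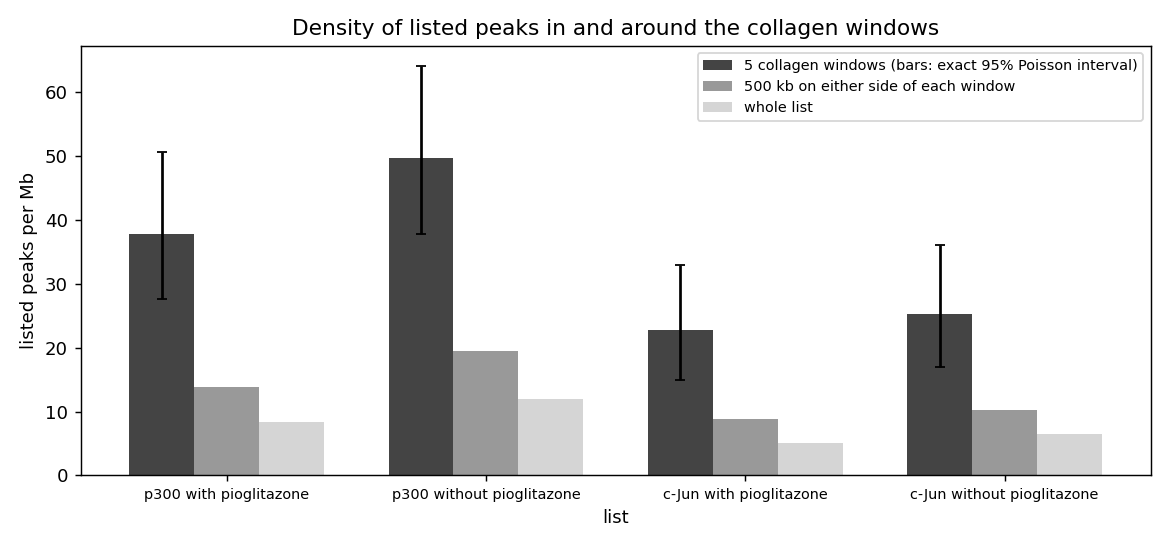
Listed peaks per Mb (y axis) for each list (x axis) in the 5 collagen windows, in the 500 kb on either side of each, and over the whole list. Error bars on the window values are exact 95% Poisson intervals, and in every list the window value, from 22.7 to 49.6, is above the flank value, from 8.80 to 19.4.

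Peaks without pioglitazone were split into retained ones, which shared at least 1 bp with a peak of that antibody in the other treatment, and lost ones. Peaks with pioglitazone that shared no base with one of that antibody without it count as gained. The terms refer to presence in a list only. Of 59 p300 peaks without pioglitazone in the windows, 35 were retained, 59.3% (95% exact interval 45.7 to 71.9), and 24 were lost, 40.7% (28.1 to 54.3), where 48.9% of the whole p300 list was lost. Of 45 p300 peaks with pioglitazone, 10 were gained, 22.2% (11.2 to 37.1), where 26.9% of the whole list was gained. The c-Jun list without pioglitazone had 30 peaks in the windows, and 16 were retained, 53.3% (34.3 to 71.7), and 14 were lost, 46.7% (28.3 to 65.7), where 54.3% of the whole c-Jun list was lost. Of 27 c-Jun peaks with pioglitazone, 11 were gained, 40.7% (22.4 to 61.2), where 41.6% of the whole list was gained. All 4 intervals hold the share of the whole list.

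The counts were also close to those of equally placed peaks. When each collagen peak was given the share of its own decile of the list, 21.8 lost p300 peaks would be counted, where 24 were found, and 10.2 gained, where 10 were found. For c-Jun the sums were 15.1 lost, where 14 were found, and 10.6 gained, where 11 were found. None of the 9 collagen p300 peaks in the first decile of the list without pioglitazone was lost, where 3.81% of that decile was. In the decile after 50%, 7 of 8 were lost, where 56.0% of that decile was, and in the one after it 0 of 3, where 64.7% was.

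c-Jun was mostly listed where p300 was. With pioglitazone a p300 peak covered part of 19 of 27 collagen c-Jun peaks, 70.4% (49.8 to 86.2), where the whole list had 55.5%, and without it 24 of 30, 80.0% (61.4 to 92.3), where the whole list had 69.4%. Seen from p300, 19 of 45 peaks with pioglitazone overlapped c-Jun, 42.2% (27.7 to 57.8), where 33.7% of the whole list did, and 24 of 59 without, 40.7% (28.1 to 54.3), where 37.6% did. Centres of overlapping peaks of the 2 antibodies lay a median of 57 bp apart with pioglitazone and 40.5 bp without. Among collagen p300 peaks without pioglitazone, 24 shared bases with c-Jun and 22 of these were retained, 91.7% (73.0 to 99.0), while 35 did not and 13 of those were, 37.1% (21.5 to 55.1). The shares over the whole p300 list were 74.1% and 37.2% in the same order. These shares are not adjusted for place.

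Joined where they overlap, the 161 peaks formed 78 sites, of which 14 were in all 4 lists, 17.9%, where 12.9% of the 44718 sites formed in the same way from the whole lists were. p300 with pioglitazone alone accounted for 7 sites, 8.97% where the whole lists had 10.6%, and p300 without pioglitazone alone for 21, 26.9% where the whole lists had 25.7%, the most frequent combination in both. A further 9 sites had p300 in both treatments and c-Jun in none, 11.5% where the whole lists had 13.4%. p300 was listed in both treatments with c-Jun only with pioglitazone at 4 sites, 5.13% where the whole lists had 2.77%, and with c-Jun only without pioglitazone at 8, 10.3% where the whole lists had 7.19%. c-Jun with pioglitazone was listed with no p300 in either treatment at 6 sites, 7.69% where the whole lists had 6.93%, and 5 of the 6 were in the Col4a1-Col4a2 window, which held 32 of the 78 sites.

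**Figure D3:**
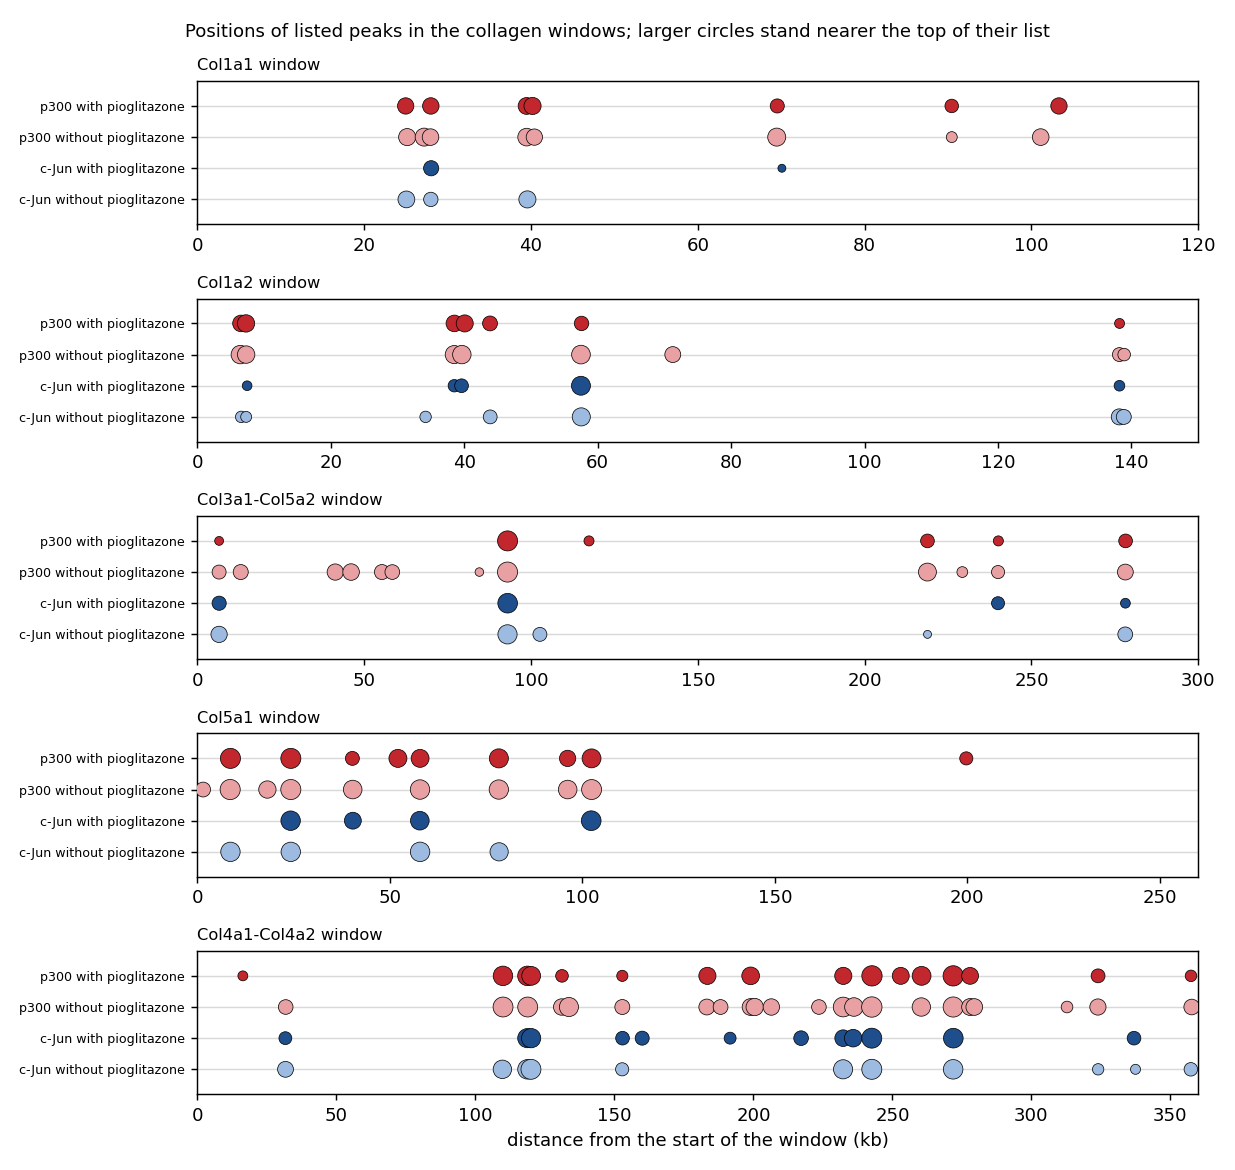
Positions of all 161 listed peaks along the 5 collagen windows, as distance in kb from the start of each window (x axis), with 1 row of circles for each list. Larger circles stand nearer the top of their list. Peaks of both antibodies stack at 14 sites in all 4 lists, while a group of p300 circles between 41.3 and 58.4 kb in the Col3a1-Col5a2 window is there only without pioglitazone.

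Type I collagen is made from both Col1a1 and Col1a2, and neither window held a peak in the first 10% of any list. In the Col1a1 window the first p300 peaks stood at 34.5% of the list with pioglitazone and 25.8% of the list without, and the first c-Jun peaks at 52.1% and 34.8%. The p300 peaks fell into groups, of which the one from 94774861 to 94790524 held 4 p300 peaks with pioglitazone and 5 without, and 1 c-Jun peak with and 3 without. The site from 94777829 to 94778146 was the only one of this window in all 4 lists, with p300 at places 40.8% with and 39.7% without, and c-Jun at 52.1% with and 58.9% without. At 94774861 to 94775278 and at 94789355 to 94789692, p300 was listed in both treatments and c-Jun only without pioglitazone, at places 37.6% and 34.8%. The nearest c-Jun peaks with pioglitazone lay 2971 and 11539 bp from these, centre to centre. The p300 site from 94790072 to 94790524 came first in the list with pioglitazone, at 34.5%, and stood at 42.2% without. Its 2 centres were 216 bp apart, near the limit of overlap. The site from 94819343 to 94819642 stood at 61.0% with pioglitazone and came first without it, at 25.8%. A c-Jun peak gained at 94819967 to 94820201 was at 98.7% of its list.

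In the Col1a2 window, the site from 4457368 to 4457687 was in all 4 lists and led 3 of them. c-Jun stood there at place 16.4% with pioglitazone and 24.9% without, and p300 at 58.2% with and 19.0% without. The orders of the antibodies thus ran in opposite directions at this site: c-Jun stood nearer the top with pioglitazone and p300 farther from it. The sites from 4407173 to 4407569 and from 4538049 to 4538328 were also in all 4 lists. p300 stood at 32.3% with and 31.6% without at the first of these, and at 88.8% with and 62.1% without at the other. The p300 rows were 7104 with and 9928 without at the first, and 19534 with and 19554 without at the other. c-Jun stood at 90.2% with and 83.0% without at the first, and at 84.6% with and 44.6% without at the other. At 4406311 to 4406686, p300 was in both treatments and c-Jun only without pioglitazone, at place 79.9%. At 4438375 to 4438631, p300 was in both and c-Jun only with pioglitazone, at 73.3%.

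At neighbouring Col1a2 sites the antibodies were listed in different treatments. At 4439473 to 4439758, c-Jun was listed only with pioglitazone, at 63.9%, and p300 only without it, at 21.4%. A p300 peak with pioglitazone lay 432 bp from that p300 centre, at 4439954 to 4440180 and place 35.1%. At 4443746 to 4444007, p300 was listed only with pioglitazone, at 54.6%, and c-Jun only without, at 62.8%. Sites with p300 only without and c-Jun only with pioglitazone made up 1.28% of collagen sites, where the whole lists had 1.75%. The reverse made up 2.56%, where the whole lists had 0.995%. The site from 4538723 to 4539025 held p300 and c-Jun without pioglitazone and neither with it. It was the only such site in the 5 windows, 1.28% of their 78 sites, where the whole lists had 4.22%. With this window narrowed by 20 kb at both ends it and the sites near both edges are left out, and p300 peaks number 4 with and 4 without. The site stood at 72.3% of the p300 list and 53.8% of the c-Jun list, and the nearest peaks with pioglitazone lay 687 bp away for p300 and 647 bp away for c-Jun.

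The window of Col3a1, for type III collagen, and Col5a2, for a type V chain, had 1 site in the first 25% of all 4 lists. At 45412833 to 45413117, p300 stood at row 1002 with pioglitazone and row 1279 without, and c-Jun at row 1225 with and row 2305 without. These are places 4.56%, 4.06%, 9.19% and 13.5%, and no other site of this window was in the first 25% of any list. Of the 12 p300 peaks without pioglitazone, 7 were lost, where 48.9% of the whole p300 list was, and none of these 7 sites had a c-Jun peak in either treatment. Of all lost p300 peaks in the list, 74.6% had none. From 45361204 to 45378552 there were 4 p300 peaks without pioglitazone and 0 with it, at places from 40.0% to 56.1%. The nearest p300 peaks with pioglitazone lay 34549 to 39562 bp away from these 4. In the deciles of the list that these peaks came from, 37.0% to 56.0% of all p300 peaks were lost.

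The sites from 45326378 to 45326637 and from 45598009 to 45598348 were in all 4 lists as well. p300 stood at 94.4% with and 61.7% without at the first, and at 63.9% with and 46.4% without at the other. The p300 rows were 20767 with and 19402 without at the first, and 14061 with and 14614 without at the other. c-Jun stood at 60.4% with and 42.5% without at the first, and at 89.5% with and 55.2% without at the other. At 45538714 to 45538987, p300 was in both treatments, at 63.9% with and 26.9% without, and c-Jun only without, at 98.7%. At 45559881 to 45560210, p300 was in both, at 88.1% with and 68.3% without, and c-Jun only with pioglitazone, at 69.0%. The p300 rows there were 19385 with and 21478 without. All 4 c-Jun peaks with pioglitazone in this window overlapped p300, and 4 of 5 did without.

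The Col5a1 window held the same number of peaks in both treatments for both antibodies, but not all the same sites: p300 was listed only with pioglitazone at 2 sites and only without it at 2. In the order of genes in GRCm38.p6, Col5a1 follows Rxra, which encodes the retinoid X receptor that pairs with PPARγ. Sites at the window's start were assigned to neither gene. The other collagen genes have protein-coding neighbours as well, and no peak of any window was assigned to a gene. All 4 c-Jun peaks with pioglitazone and all 4 without overlapped p300. Of the 4 without, 2 were retained and 2 were lost, where 54.3% of the whole c-Jun list was lost, and of the 4 with, 2 were gained, where 41.6% was. These counts are near the shares of the whole lists. p300 was listed in both treatments at all 4 of the sites where c-Jun was lost or gained. Over all windows that was so at 8 of the 14 sites where c-Jun was lost and 4 of the 11 where it was gained. Of whole-list sites with c-Jun only without pioglitazone, 3216 had p300 in both treatments and 3603 had none. A further 1888 had p300 only without pioglitazone and 445 only with it. For whole-list sites with c-Jun only with pioglitazone, these numbers were 1237, 3099, 784 and 313.

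The lost c-Jun peaks were at 27698390 to 27698710 and 27768181 to 27768510, at places 11.6% and 23.7%, with the nearest c-Jun peaks with pioglitazone 15633 and 20601 bp away. p300 stood there at 4.27% with and 3.32% without at the first site, and at 15.0% with and 12.4% without at the other. The gained c-Jun peaks were at 27730151 to 27730503 and 27792195 to 27792531, at places 37.0% and 8.41%, with the nearest c-Jun peaks without pioglitazone 16133 and 23926 bp away. p300 stood there at 62.0% with and 19.8% without at the first site, and at 16.6% with and 5.60% without at the other. The gained c-Jun peak at 8.41% was the c-Jun peak nearest the top of the list with pioglitazone in this window. In its decile of that list 5.55% of peaks were gained, and in the decile of the lost peak at 11.6%, 26.2% of peaks were lost.

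Of the other Col5a1 sites, the one from 27714102 to 27714390 held high places in all 4 lists. p300 stood at 4.28% with and 3.99% without, and c-Jun at 10.9% with and 11.6% without. The site from 27747668 to 27747976 was also in all 4, with p300 at 26.8% with and 10.9% without, and c-Jun at 19.4% with and 10.5% without. Of the 9 p300 peaks in each list, 4 with pioglitazone and 7 without were in the first 25%. The median place of p300 in this window was 26.1% with and 12.4% without.

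The Col4a1-Col4a2 window, the longest at 360 kb, held the most peaks, and the collagen site nearest the top of every list. Per 100 kb it was not the densest. p300 stood at 5.83 with and 6.67 without at Col1a1, against 4.44 and 6.11 here. c-Jun stood at 3.33 with and 4.67 without at Col1a2, against 3.33 and 3.06 here. At 11382465 to 11382764, p300 stood at row 274 of 21994 with pioglitazone and row 198 of 31466 without, and c-Jun at row 725 of 13325 with and row 804 of 17044 without. These are places 1.25%, 0.629%, 5.44% and 4.72%. The site from 11411730 to 11412029 came next for p300, at 1.57% with and 3.26% without, and held c-Jun at 8.78% with and 10.0% without. Both sites thus kept both factors near the top of their lists in both treatments.

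Around them, from 11323114 to 11419581, p300 peaks numbered 8 with and 13 without pioglitazone and c-Jun peaks 6 with and 3 without. This group of 17 sites is 96.5 kb long, and no gap between neighbouring centres in it was over 12.5 kb. p300 was lost there at places 20.4% to 56.6% of the list, including 11376036 to 11376282 at 20.4%, with the nearest p300 peak with pioglitazone 3821 bp away. In the deciles that these lost peaks came from, 26.4% to 56.0% of all p300 peaks were lost. In the whole window 10 of 22 were lost, where 48.9% of the whole p300 list was. p300 was also gained in the group, at 11392891 to 11393117 and place 36.1%, in a decile where 17.6% of p300 peaks were gained. The c-Jun peaks gained in the group were at 11331507 to 11331741, 11357037 to 11357271 and 11375773 to 11376007, at places 76.7%, 56.5% and 30.1%. In their deciles of the list, 58.9%, 47.6% and 34.7% of c-Jun peaks were gained. None of these 3 c-Jun peaks overlapped a p300 peak in either treatment. That was also the most frequent case for whole-list sites with c-Jun only with pioglitazone. Of those sites, 3099 had no p300, 1237 had it in both treatments, 784 only without pioglitazone and 313 only with it. The 3 c-Jun peaks without pioglitazone in this group were all retained. They stood in the first and second deciles of that list, where 9.27% and 26.2% of c-Jun peaks were lost. Over the whole window, c-Jun peaks numbered 6 with and 7 without in the first 50% of every list, and 12 with and 9 without when both c-Jun lists were made equally long, so which treatment had more depended on how many rows were read.

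The site from 11372142 to 11372451, in the same group, was in all 4 lists and stood lower with pioglitazone for both antibodies. p300 stood at 34.3% with and 7.72% without, and c-Jun at 39.5% with and 14.1% without. This was the only collagen site in all 4 lists that left the first 25% of both its lists.

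A second Col4a1-Col4a2 group ran from 11249581 to 11273763. At 11258549 to 11258935 all 4 lists held a peak, with p300 at 10.1% with and 5.76% without, and c-Jun at 14.2% with and 10.6% without. At 11259859 to 11260165, c-Jun was in both treatments, at 12.7% with and 5.30% without, and p300 only with pioglitazone, at 17.8%. The nearest p300 peak without pioglitazone was 1240 bp away. That was the only gained one among the 11 collagen p300 peaks in the first 25% of the list with pioglitazone, where 4.67% of all p300 peaks in that first 25% were gained. At 11249581 to 11250064, p300 was in both treatments, at 10.2% with and 5.70% without, and c-Jun only without, at 21.5%. Their centres were 236 bp apart without pioglitazone. The p300 peak at 11273517 to 11273763, at 14.8%, was lost, with the nearest p300 peak with pioglitazone 2492 bp away. It was the lost collagen p300 peak nearest the top, and 3 of the 20 collagen p300 peaks in the first 25% of the list without pioglitazone were lost, where 11.4% of all p300 peaks in that first 25% were.

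Of the remaining Col4a1-Col4a2 sites in several lists, the one from 11292666 to 11293042 was in all 4. p300 stood there at 81.6% with and 53.8% without, and c-Jun at 64.3% with and 68.1% without. At 11171526 to 11171884, c-Jun was in both treatments, at 70.3% with and 46.4% without, and p300 only without, at 56.6%. At 11463807 to 11464131, p300 was in both, at 62.6% with and 43.0% without, and c-Jun only without, at 80.2%.

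Among retained peaks, places in the 2 treatments ran together. Spearman's rho was 0.82 across the 35 retained collagen p300 peaks and 0.86 across the 16 c-Jun peaks, where it was 0.81 and 0.74 over the whole lists. Peaks within a library are not independent. The median place of the retained collagen p300 peaks was 37.5% with pioglitazone and 25.8% without, and that of the c-Jun peaks 29.5% with and 19.5% without. A shorter list with pioglitazone moves a shared peak to a later percentage, so the whole lists give the measure. Of the retained collagen p300 peaks, 6 of 35 stood nearer the top with pioglitazone, 17.1% (6.56 to 33.6), where 30.1% of all retained p300 peaks did. For c-Jun 6 of 16 did, 37.5% (15.2 to 64.6), where 39.8% of all did.

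**Figure D4:**
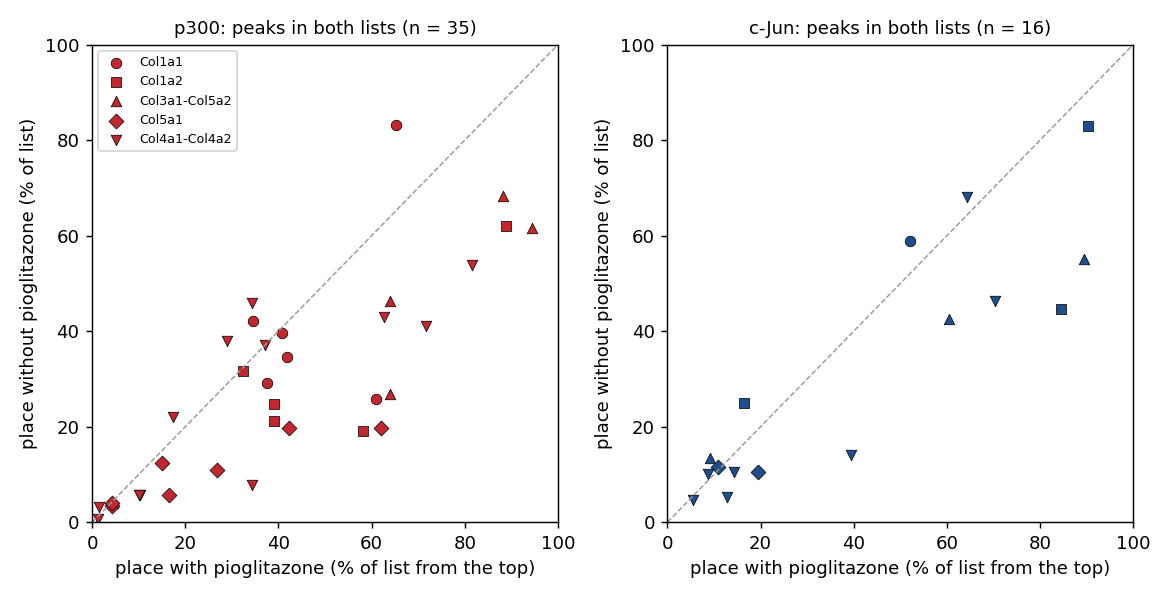
Place of each retained collagen peak in the list with pioglitazone (x axis) and without it (y axis), as % of the list from the top, for p300 (left, n = 35) and c-Jun (right, n = 16), with 1 marker shape for each window. The dashed line marks equal places, and 6 of the 35 p300 points and 6 of the 16 c-Jun points stand nearer the top with pioglitazone, above the line.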

How the data were processed

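The windows, genes and choices were made with earlier results of these data known. The authors worked on build mm9 with HOMER, SAMtools 1.9 and Bowtie2 2.3.4.3, per the submitters' processing notes. Their roles and settings, the HOMER version and the use of the input are not stated there. The authors deposited 1 peak list per ChIP library, whose score column is 1 for every peak. All peaks of a list share 1 width, 227 bp (p300 with pioglitazone), 247 bp (p300 without), 235 bp (c-Jun with) or 249 bp (c-Jun without), so width holds no measurement. Depth is unknown, and more reads or better enrichment would lengthen a list.

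Overlaps were computed from peak centres in Python (version 3.11.15, numpy 2.4.6, pandas 2.3.3, scipy 1.17.1), tested on simulated data, and gave the number of bedtools (version 2.31.1) in 24 of 24 comparisons. Chromosome spans for densities, 2637 Mb in all, were taken from the last peak of each chromosome. Shares carry exact Clopper-Pearson and densities exact Poisson 95% intervals. No mm9 annotation or sequence was used here, so peaks were not placed in exons, introns or promoters and other matrix genes were not examined. The sites named are those in 3 or 4 lists, the first of each list in a window, those in 1 treatment only for both antibodies, and those in the first 25% of a list but absent from the other treatment. The other sites named in the report were chosen after their values were seen.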

Additional observations from a re-analysis of the deposited data

Results flagged for a closer look

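In the Col4a1-Col4a2 window p300 had fewer peaks with pioglitazone while c-Jun had more, a contrast between the antibodies that no other window showed. The difference with minus without pioglitazone was -6 for p300 (16 with, 22 without) and 1 for c-Jun (12 with, 11 without). For p300 the number with pioglitazone was thus 72.7% of that without, near the 69.9% of the whole lists. For c-Jun it was 109%, where the whole lists stood at 78.2%, and the opposite direction rested on 1 peak. The difference was not tested, since each group is 1 library. In the first 50% of every list, c-Jun numbered 6 with and 7 without and p300 11 with and 17 without, so the movement was then not opposite. With lists of equal length for each antibody, c-Jun numbered 12 with and 9 without and p300 16 with and 21 without, and the movement was opposite.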

How the results depend on the processing

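No paired analysis was possible because each group is 1 library. Of 76 comparisons of a total, density, share or number of sites with an alternative, 68 stayed within the counting interval or within 1.5 times the count, with overlap of at least 50% of both peaks, centres within 500 bp, lists of equal length, or windows widened or narrowed by 20 kb among them. The other 8 came from keeping the first 50% of each list, which removes peaks by construction. p300 with pioglitazone then numbered 28 in the windows, c-Jun with 12 and c-Jun without 17. Densities were 23.5 peaks per Mb for p300 with and 36.1 without, and 10.1 for c-Jun with and 14.3 without, and 7 sites were in all 4 lists. Of 12 c-Jun peaks with pioglitazone, 3 were then gained, a share within the interval given above. Over all alternatives the retained share ran from 53.5% to 63.0% for p300 and from 46.7% to 62.5% for c-Jun, and the share of c-Jun peaks on p300 from 63.0% to 75.0% with and from 73.3% to 83.3% without pioglitazone. Of 80 single-window counts, 15 moved by over 1.5 times, 10 of them in the first 50% of rows. The alternatives for the number of sites were chosen after seeing the data. Unknown depth limits every count.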
